A study of Mus musculus with 4 samples.

Results

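Cells of the basophil and mast cell lineage were sought among single cells sorted as endothelium from mice, and were chosen by their own RNA. A cell was selected where Mcpt8 and Prss34 together gave at least 5 unique molecular identifiers (UMIs, the counted molecules), with Elane, a neutrophil elastase gene, under 0.5% of the cell's UMIs and with Lyz2 and Jchain each under 2%. Of 3567 kept cells, 61 met this rule, and they came from 3 of the 4 libraries.

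Basophils are rare blood granulocytes that bind IgE through the receptor FcεRI, store histamine and proteases in granules, and release cytokines and lipid mediators when the receptor is cross-linked. Mast cells share the receptor, histamine and carboxypeptidase A3 with them, but mature in tissues, depend on the receptor tyrosine kinase Kit and store chymases and tryptases of their own. In the mouse, the granule proteases encoded by Mcpt8 and Prss34 mark basophils, and the zinc finger factor Gata2 is needed for both lineages.

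The study asked what loss of Id1 and Id3, helix-loop-helix proteins that hold E proteins off DNA, does to vessels that serve blood formation. The sort kept lineage-negative cells with CD31, endomucin and VE-cadherin on their surface. A Sca-1-negative gate is labelled sinusoidal, and a Sca-1-positive gate is labelled H vessel (type H, a capillary type of bone). Each gate gave 1 library labelled knockout, of genotype ID1-/- ID3-/-, and 1 labelled WT with the genotype ID1+/+ ID3+/-, so the controls carried 1 disrupted Id3 allele. Tamoxifen, given to all mice on 5 consecutive days, served to delete Id1 through a CreER driven by Cdh5, a gene of endothelium. The sources used here do not state the age of the mice or how many stand behind a library. With 1 library per group there was no replicate check and no test. Intervals are exact 95% intervals for counting error only, and "labelled knockout" and "labelled control" follow the labels.

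The sinusoidal library labelled control held 15 such cells among 351 (4.27%, interval 2.41 to 6.95), and the sinusoidal library labelled knockout held 41 among 553 (7.41%, 5.37 to 9.92). The type H library labelled control held 5 among 806 (0.62%, 0.202 to 1.44). The type H library labelled knockout held 0 among 1857, which allows a share of up to 0.162%. The cells thus lay mainly in the Sca-1-negative gate, and the intervals of its libraries overlapped. Depth differed between the 4 libraries. The median kept cell held 6142, 15428, 6420 and 5597 UMIs in the order sinusoidal control, sinusoidal knockout, type H control and type H knockout. When each cell was thinned to 2000 UMIs, the sinusoidal shares were 3.42% and 4.52%. Libraries shared 4 cell barcodes, and 1 of these belonged to a cell of the rule.

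Basophil genes were found in these cells, and the defining mast cell genes were not. Of 10 basophil markers 2, Mcpt8 and Prss34, chose the cells, and of the other 8, summed over the cells of a library, 7 gave UMIs in each of the 3 libraries and Itga2 stayed at 0. The name basophil rests on 43 of the 61 cells, since the other 18 carried few of these genes. Of these 43, 1 cell also carried 1022 UMIs of the eosinophil gene Prg2, so the name is less sure for it. The mast cell chymase and tryptase genes Cma1, Mcpt4, Tpsb2, Tpsab1, Mcpt1 and Mcpt2, and the mast cell receptor gene Mrgprb2, gave 0 UMIs in all 61 cells of 682678 UMIs. Kit gave 1 UMI in each control library among the cells with further basophil markers and 4 and 10 UMIs in the other cells of the sinusoidal control and knockout, and Slc6a4, the serotonin transporter gene, gave 4 in the sinusoidal control. The endothelial genes Cdh5, Kdr, Flt4 and Ptprb were at 0 in the 61 cells. The endothelial list also holds Stab2 and Plvap, and its members besides Pecam1 were not all at 0. The whole list, Pecam1 included, gave 20 UMIs in the 18 cells with few basophil genes. Pecam1, which encodes CD31, gave 42 UMIs in 22 of the 38 sinusoidal cells that carried further basophil markers (134.6 counts per 1000000 UMIs, CPM), and Emcn gave 0.

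Not every cell of the rule carried the other genes of the lineage. A cell was called marker-rich where at least 2 of Cpa3, Ms4a2, Fcer1a and Cd200r3 gave UMIs, a split made after the values were seen. There were 43 marker-rich cells, 12, 26 and 5 in sinusoidal control, sinusoidal knockout and type H control. The other 18 cells, 3 in the sinusoidal control and 15 in the sinusoidal knockout, are called marker-poor. In the marker-poor cells Mcpt8 and Prss34 together made a median of 0.0288% of UMIs, at a median depth of 18806 UMIs in the library labelled knockout. Of the 41 cells of that library, 14 lay just inside the threshold with 5 to 9 Mcpt8 and Prss34 UMIs, and 0 of these were marker-rich, whereas 26 of the 27 cells with 10 or more were. Just outside the threshold, 43 cells had 3 or 4 such UMIs and met the other limits, and 2 of them were marker-rich. Outside the rule 379 of 553 cells of this library held 1 to 4 such UMIs, so a few molecules of Mcpt8 or Prss34 were found in most of its cells. In the sinusoidal control 143 of 351 cells did.

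The marker-poor cells carried markers of granulocyte and monocyte precursors. In the library labelled knockout the early granulocyte markers (Elane, Mpo, Prtn3, Ctsg and Ms4a3) summed to 7499 CPM, against 40840 CPM in the Elane-high precursors (Elane at least 0.5% of UMIs) of the same library. Their monocyte markers summed to 6238 CPM. A single cell of 15643 UMIs with 6 Mcpt8 and Prss34 UMIs held 5090 of the 5255 later neutrophil marker UMIs of this class. Results are therefore given for the marker-rich cells as well as for all cells of the rule.

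**Figure D1:**
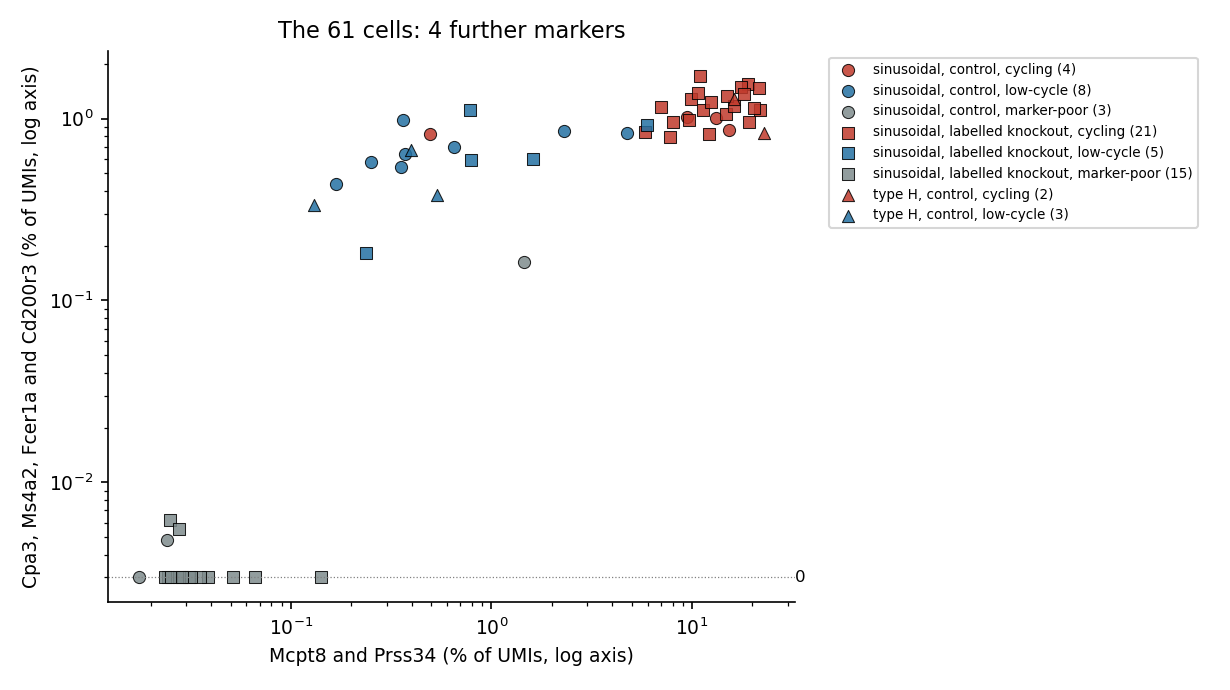
Each point is 1 of the 61 cells of the rule, with Mcpt8 and Prss34 as a percent of its UMIs on the horizontal axis (log scale) and Cpa3, Ms4a2, Fcer1a and Cd200r3 as a percent on the vertical axis, by library and class. The 18 marker-poor cells range from 0.0175 to 1.46% on the horizontal axis with a median of 0.0288%, and the cycling cells from 0.491 to 22.8% with a median of 13.1%, so the classes overlap on this axis.

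The genes that define these cells lie apart in the genome, and 2 of them sit among related proteases. Mcpt8 (chromosome 14, 56082163 to 56085499 in GRCm38.p6, RefSeq; minus strand) lies 14.4 kb from Ctsg, the cathepsin G gene, and 19.9 kb from Mcpt4, in a run of serine protease genes that continues to Cma1 at 137.0 kb on one side and Gzmb at 173.0 kb on the other. In this run the rule cells carried Mcpt8 and Ctsg in quantity, and Mcpt4, Mcpt2, Mcpt1 and Cma1 at 0. Prss34 (chromosome 17, 25298394 to 25300168, plus strand) is followed by Prss28 and Prss29 and, at 66.1 kb, by Tpsb2, the tryptase gene that was at 0. The sources used here do not state how reads shared by related genes were counted.

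Upstream sequences are shown for 5 of the 6 genes that chose the cells or the marker-rich class, so that these genes appear together in the same cells by choice. They are RefSeq promoter windows of GRCm38.p6, the assembly of mm10, read 5′ to 3′ on the gene's strand, and only bases before the gene model are printed. The Mcpt8 window lies inside its own RefSeq gene model and is not printed. Capitals mark AGATAA and TGATAA, letters that GATA factors bind, and TTGCNNAA, letters that C/EBP factors bind, on either strand.
Prss34 (chr17:25298144-25298393, plus strand): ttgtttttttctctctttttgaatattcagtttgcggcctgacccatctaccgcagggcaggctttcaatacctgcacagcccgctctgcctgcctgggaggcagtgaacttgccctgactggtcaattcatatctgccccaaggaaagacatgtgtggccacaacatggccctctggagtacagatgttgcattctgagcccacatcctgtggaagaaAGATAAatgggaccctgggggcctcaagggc
Cpa3 (chr3:20242210-20242431, minus strand): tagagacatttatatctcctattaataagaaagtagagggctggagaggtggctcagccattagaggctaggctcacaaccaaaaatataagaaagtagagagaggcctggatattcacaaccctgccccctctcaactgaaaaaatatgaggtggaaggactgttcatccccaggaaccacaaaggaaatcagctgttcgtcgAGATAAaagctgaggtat
Ms4a2 (chr19:11623791-11623969, minus strand): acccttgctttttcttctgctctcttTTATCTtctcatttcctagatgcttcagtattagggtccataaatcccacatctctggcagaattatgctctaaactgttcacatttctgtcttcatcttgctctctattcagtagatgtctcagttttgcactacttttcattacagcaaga
Fcer1a (chr1:173227233-173227479, minus strand): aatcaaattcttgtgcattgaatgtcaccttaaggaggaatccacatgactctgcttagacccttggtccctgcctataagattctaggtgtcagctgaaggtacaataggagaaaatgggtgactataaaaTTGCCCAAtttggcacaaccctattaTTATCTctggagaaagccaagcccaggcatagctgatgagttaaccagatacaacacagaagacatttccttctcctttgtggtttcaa
Cd200r3 (chr16:44943428-44943595, plus strand): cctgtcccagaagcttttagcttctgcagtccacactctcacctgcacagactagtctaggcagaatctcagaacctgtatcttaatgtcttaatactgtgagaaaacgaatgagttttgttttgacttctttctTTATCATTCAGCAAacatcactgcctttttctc
AGATAA occurred in the full 250-base window of each of these 5 genes. It began 31 bases before the start of Prss34, and Ms4a2 held 3 copies, of which 1 is in the printed part. The copy of Cd200r3, 39 to 34 bases before its start, lies inside its gene model and is not printed. Of 32536 mouse promoter windows of this length, 9.97% held AGATAA, 7.79% TGATAA and 9.57% TTGCNNAA. The windows of Mcpt8, Gata2, Hdc, Ctsg and Elane held none of the 3. Like that of Mcpt8, the Hdc window and 1 Gata2 window lay wholly inside the RefSeq gene model. A match is a description of the letters and not a measured site.

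The marker-rich cells fell into 2 ranges of cell cycle transcripts. UMIs of 36 S phase and G2/M genes made 0.518 to 1.95% of all UMIs in 27 cells, here called cycling, and 0 to 0.187% in 16 cells, here called low-cycle. No marker-rich cell lay between 0.187% and 0.518%. The limit between them, 0.3%, was set after these values were seen, so the cell cycle genes themselves are no finding. Cycling cells were larger in RNA, with medians of 11978, 10411 and 9678 UMIs in sinusoidal control, sinusoidal knockout and type H control, against 3055.5, 2696 and 4483 in low-cycle cells. A single low-cycle cell labelled knockout carried 1022 UMIs of Prg2, the major basic protein gene of eosinophils. It held 7131 of the 17978 UMIs of its class in that library. Values without it are given for some genes below, and low-cycle values labelled knockout otherwise include it. Depth and class moved together, and the part of depth in the class differences was not tested other than by thinning.

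The 2 sinusoidal libraries differed in the mix of these classes. The library labelled control held 4 cycling cells (1.14% of its kept cells, 0.311 to 2.89) and 8 low-cycle cells (2.28%, 0.989 to 4.44). The library labelled knockout held 21 cycling cells (3.8%, 2.37 to 5.75) and 5 low-cycle cells (0.904%, 0.294 to 2.1). Marker-rich cells as a whole made 3.42% (1.78 to 5.9) and 4.7% (3.09 to 6.81). The type H control held 2 cycling and 3 low-cycle cells. The sort and the depth of each library can set such shares, and with 1 library each they cannot be told apart from the label.

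**Figure D2:**
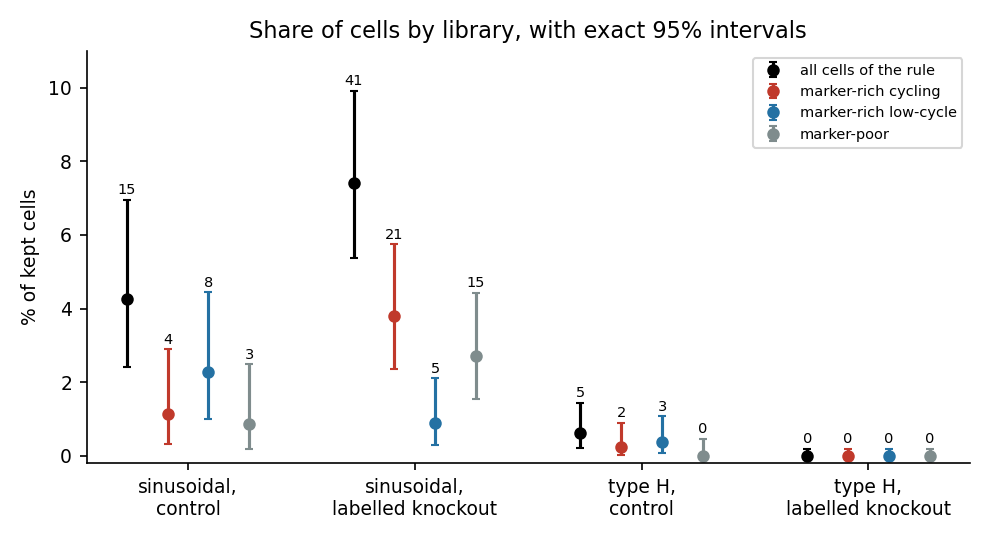
Points give all cells of the rule and the marker-rich cycling, marker-rich low-cycle and marker-poor cells as a percent of the kept cells of each library. Lines are exact 95% binomial intervals. Cycling cells make 3.8% of the sinusoidal library labelled knockout and 1.14% of the labelled control, and low-cycle cells 0.904% and 2.28%.

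Granule protease transcripts made up a large part of the RNA of the cycling cells. Since Mcpt8 and Prss34 chose the cells, their levels are a description. Mcpt8, which encodes mast cell protease 8, stood at 27100, 54220 and 45260 CPM in the cycling cells of sinusoidal control, sinusoidal knockout and type H control, and at 4185, 9734 and 1694 CPM in their low-cycle cells. Prss34, which encodes mast cell protease 11, stood at 48690, 85020 and 146800 CPM in cycling cells and at 9802, 5674 and 1613 CPM in low-cycle cells. Without the Prg2-rich cell, the low-cycle cells labelled knockout stood at 14840 CPM of Mcpt8 and 9127 CPM of Prss34. In all 3 libraries both were higher in the cycling cells, where they made a median of 13.1% of a cell's UMIs (0.491 to 22.8) against 0.466% (0.13 to 5.98). Over the 43 marker-rich cells, the percent of Mcpt8 and Prss34 UMIs and the percent of cell cycle UMIs had a Spearman rho of 0.759, and within the 27 cycling cells 0.323. This describes cells that share libraries and depths. Elane-high precursors held 46 and 88 CPM of Mcpt8 in the sinusoidal control and knockout.

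**Figure D3:**
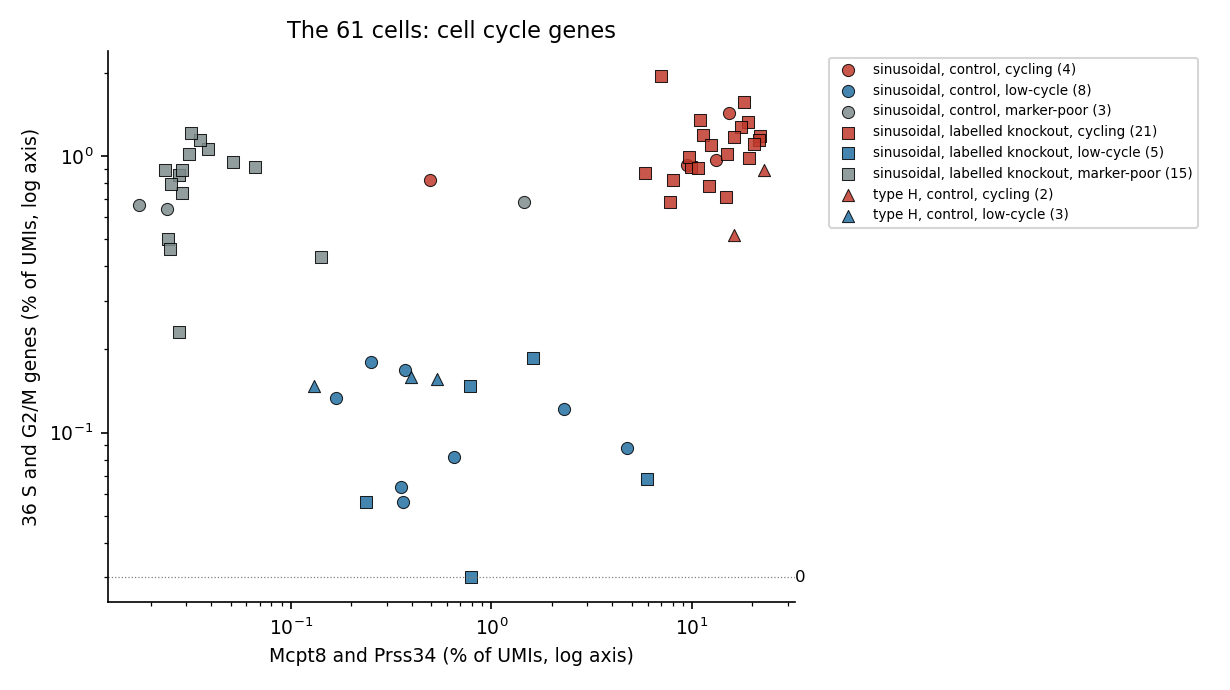
Each point is a cell of the rule, by library and class. Mcpt8 and Prss34 as a percent of its UMIs are on the horizontal axis. Cell cycle genes as a percent are on the vertical axis (both log scale). Low-cycle cells reach at most 0.187% on the vertical axis, and the type H cells fall into both marker-rich classes.

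Cpa3, which encodes carboxypeptidase A3, varied less between the classes. It gave 12 to 82 UMIs per cycling cell (median 40) and 1 to 18 per low-cycle cell (median 7). Scaled, it stood at 3225, 4003 and 4030 CPM in the cycling cells of the 3 libraries and at 2413, 2002 and 1049 CPM in the low-cycle cells. Ctsg, which encodes cathepsin G of early granulocytes, separated the classes more. It stood at 4325, 4670 and 3565 CPM in cycling cells, near the 5834 and 5705 CPM of sinusoidal Elane-high precursors, and at 75, 946 and 81 CPM in low-cycle cells. Without the Prg2-rich cell the middle value of Ctsg was 369 CPM on 4 UMIs, which puts the cycling cells labelled knockout 12.7-fold higher (4.93 to 46.57). After thinning to 2000 UMIs, Ctsg was seen in 4 of 4, 20 of 21 and 2 of 2 cycling cells and in 1 of 8, 3 of 5 and 1 of 3 low-cycle cells. Unthinned, 4, 20 and 2 cycling cells and 2, 3 and 1 low-cycle cells had a Ctsg UMI. Elane itself, limited by the rule, was at 476, 277 and 0 CPM in the cycling cells.

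The chains of the IgE receptor were present in both classes. Fcer1a and Ms4a2, with Cpa3 and Cd200r3, chose the marker-rich class. Their presence in its cells and their lack in marker-poor cells are thus a description. Fcer1a encodes the chain that binds IgE, and gave 16 to 112 UMIs in each cycling cell, 1 to 17 in each low-cycle cell and 0 in marker-poor cells. Its level was 4105, 5604 and 4495 CPM in cycling cells and 2300, 2392 and 1129 CPM in low-cycle cells. Ms4a2, which encodes the beta chain that amplifies the signal, stood at 1356, 1159 and 1033 CPM against 829, 556 and 403 CPM. The common gamma chain gene Fcer1g was at 0.511-fold (0.3833 to 0.682), 0.853-fold (0.6566 to 1.126) and 0.933-fold (0.5952 to 1.478) in cycling over low-cycle cells, and at 0.57-fold (0.4332 to 0.7633) in the sinusoidal knockout without the Prg2-rich cell. It was thus lower in cycling cells beyond counting error in the sinusoidal control, and in the sinusoidal knockout only without that cell. Lat2, an adaptor that works below the receptor, was at 440, 544 and 517 CPM in cycling and at 1470, 1224 and 1129 CPM in low-cycle cells. Cd200r3, an activating surface receptor of basophils, stood at 458, 1108 and 1240 CPM in cycling cells and 1621, 668 and 1613 CPM in low-cycle cells. Without the Prg2-rich cell the low-cycle value of Cd200r3 in the knockout was 1106 CPM (cycling over low-cycle 1.001-fold, 0.5625 to 1.965), so its reversed order there rested on that cell.

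Genes for histamine and lipid mediators were found at low to middling levels. Hdc, the enzyme that makes histamine, stood at 532, 605 and 413 CPM in cycling cells and at 1923, 1001 and 1613 CPM in low-cycle cells, so it was higher in the low-cycle cells of all 3 libraries. Alox5ap, which helps arachidonate 5-lipoxygenase start leukotriene synthesis, stood at 1008, 1582 and 1963 CPM against 3318, 1724 and 2017 CPM. Cyp11a1, the enzyme that cuts the side chain of cholesterol, stood at 165, 277 and 568 CPM against 792, 834 and 1129 CPM. Without the Prg2-rich cell the low-cycle values labelled knockout were 1567 CPM for Hdc, 2489 CPM for Alox5ap and 1383 CPM for Cyp11a1. In Elane-high precursors Cyp11a1 gave 1 UMI in each sinusoidal library.

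Several chemokine genes were higher in the low-cycle cells. Ccl3, a chemokine that draws monocytes and lymphocytes, stood at 15680, 7454 and 19520 CPM in the low-cycle cells of sinusoidal control, sinusoidal knockout and type H control and at 715, 2736 and 5011 CPM in the cycling cells. Ccl4, its close relative, stood at 13570, 7620 and 14440 CPM against 586, 1657 and 155 CPM. Ccl9 stood at 4637, 4728 and 3066 CPM against 110, 117 and 103 CPM. Each of these was higher in low-cycle cells in all 3 libraries, and without the Prg2-rich cell the values in the knockout were 12350, 12540 and 7836 CPM. Thinned to 2000 UMIs, a low-cycle cell held 30.5, 19.8 and 42.3 Ccl3 UMIs on average and a cycling cell 2.5, 6.38 and 8.5. Osm, which encodes oncostatin M, a cytokine of the IL-6 family, stood at 3619, 278 and 4921 CPM in low-cycle cells and at 110, 202 and 362 CPM in cycling cells. Per low-cycle cell Osm gave 1 to 24 UMIs in the sinusoidal control, 0 to 3 in the sinusoidal knockout and 13 to 31 in the type H control. The low-cycle cells labelled knockout were thus the ones with little Osm. Il4, a cytokine for which basophils are known, stood at 73, 89 and 103 CPM in cycling cells and 188, 167 and 81 CPM in low-cycle cells. Il6 stood at 128, 404 and 775 CPM and at 1056, 334 and 242 CPM, with no common order.

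Across the 234 genes with enough UMIs in both classes of all 3 libraries, 14 were at least 2-fold higher in the cycling cells of each library (5.98%) and 16 at least 2-fold lower (6.84%). Without the Prg2-rich cell the counts were 15 and 21. Of 6 granule protein genes measured, 3 were higher in this way, namely Ctsg and the 2 genes that chose the cells. Of 5 cytokine and chemokine genes 4 were lower, and all 5 without the Prg2-rich cell. Among the higher genes outside the lists were Hspa5, Calr and Hsp90b1, chaperones of the endoplasmic reticulum, with Hspa5 5.10-fold (1.852 to 19.6), 13.6-fold (2.404 to 539.9) and 9.61-fold (2.438 to 82.96) higher in the 3 libraries. Ms4a3, a membrane protein gene of early granulocytes, was 10.4-fold (4.321 to 32.69) and 4.002-fold (1.921 to 10.03) higher in the sinusoidal libraries and gave 28 against 0 UMIs in the type H control. Lower genes included Ifitm1, an interferon-induced membrane protein gene (0.117-fold, 0.103-fold and 0.0221-fold). Of 9 immediate-early and heat shock genes measured 0 were higher and 3 lower in this way, namely Zfp36, Ier2 and Junb, with Zfp36 at 0.0331-fold, 0.0633-fold and 0.0534-fold. Dusp1 of the same list stood at 1.82-fold, 3.21-fold and 0.726-fold. The set of 12 genes per direction was named by a rule of size applied after these classes had been seen.

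**Figure D4:**
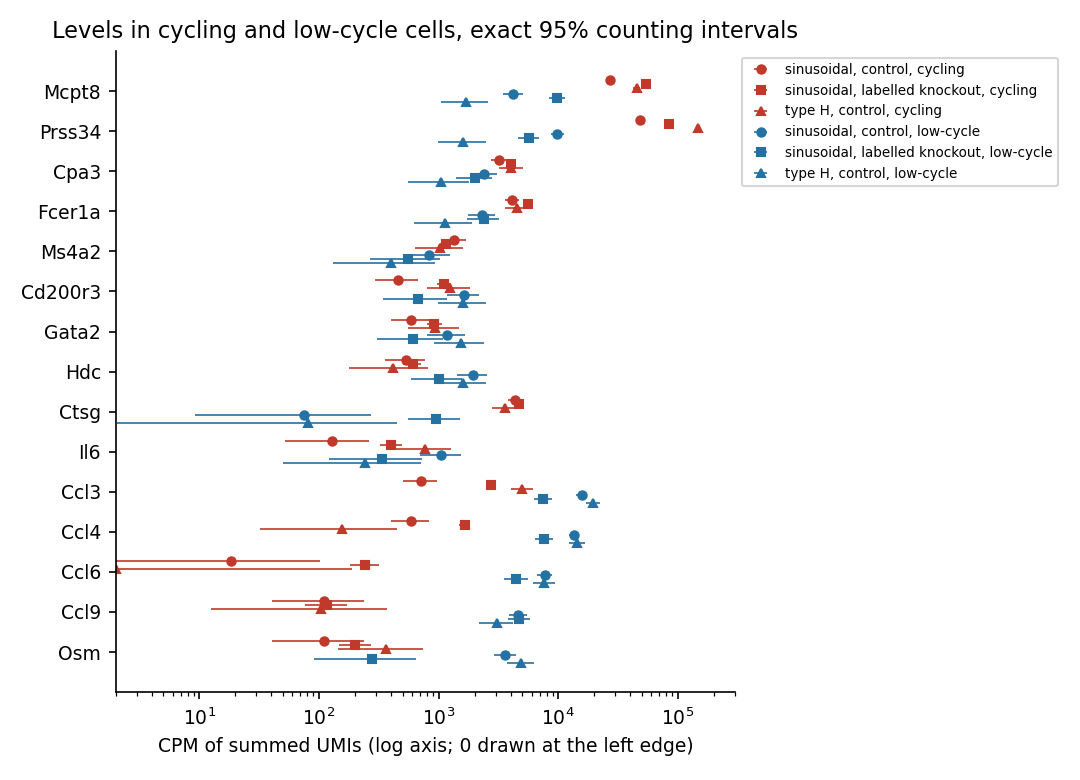
Points give CPM (log axis) of named basophil, chemokine and granulocyte genes in marker-rich cycling and marker-rich low-cycle cells, by library, with exact Poisson 95% intervals. Cpa3 and Fcer1a stay above 1000 CPM in both marker-rich classes, while Ctsg falls from 4325 to 75 CPM and Ccl3 rises from 715 to 15680 CPM from cycling to low-cycle cells of the sinusoidal control.

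Several transcription factor genes differed between the classes or from their levels in Elane-high precursors. Gata2 gave 4 to 17 UMIs in each cycling cell and stood at 586, 920 and 930 CPM there, and at 1169, 612 and 1533 CPM in low-cycle cells. Without the Prg2-rich cell the low-cycle value of Gata2 in the sinusoidal knockout was 922 CPM, so its reversed order there rested on that cell. Cebpa, a factor of granulocyte and monocyte precursors, stood at 293, 394 and 362 CPM in cycling and 641, 334 and 242 CPM in low-cycle cells. In marker-rich cells it was 6.56-fold (4.225 to 9.966) and 5.14-fold (4.035 to 6.486) higher than in Elane-high precursors of the sinusoidal control and knockout. Runx1, a factor that basophils need, was at 202, 230 and 207 CPM in cycling cells. Spi1, which encodes PU.1, was at 220, 197 and 362 CPM in cycling cells and at 353 and 321 CPM in the sinusoidal Elane-high precursors. Marker-rich cells over these precursors stood at 0.872-fold (0.5584 to 1.305) in the control and 0.673-fold (0.4975 to 0.8921) in the knockout. Cebpe, a factor of later neutrophil and eosinophil precursors, was at 0 in cycling cells of each library. Irf8, a monocyte factor, was at 37, 5 and 0 CPM in cycling cells and at 210 and 454 CPM in the sinusoidal marker-poor cells. Gata2 was at 76 and 56 CPM in those marker-poor cells. So Gata2 was higher in the marker-rich cells and Irf8 in the marker-poor ones.

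Set against Elane-high precursors of the same library, all cells of the rule were at least 2-fold higher in both sinusoidal libraries for 293 of 5723 genes (5.12%) and at least 2-fold lower for 169 (2.95%). The rule itself splits these cells by Elane, Mcpt8 and Prss34, so the contrast is a description. Cpa3 stood at 1844 against 3.184 CPM in the control (579-fold, interval 223.3 to 2142) and at 1720 against 3.073 CPM in the knockout (559.6-fold, 337.5 to 1004). Gata2 was 315-fold (83.99 to 2658) and 300.5-fold (143.4 to 756) higher. Itga2b, an integrin chain shared with megakaryocytes, was 87.9-fold (27.15 to 451.7) and 80.2-fold (38.47 to 193.2) higher. Rnase12, a gene of the ribonuclease A family, was 424-fold (72.27 to 17100) and 243-fold (101.6 to 762.1) higher on 1 and 5 UMIs in the precursors. Csrp3, a muscle LIM protein gene, was 160.1-fold (65.97 to 505.6) and 330.1-fold (109.9 to 1627) higher. These genes were close to absent from the precursors of the same libraries.

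By role, the genes called the same way in both sinusoidal libraries were 3 higher (Cpa3 and the 2 genes that chose the cells) and 2 lower of 12 granule protein genes, 4 and 1 of 12 IgE receptor and signalling genes, and 3 and 2 of 7 histamine and eicosanoid genes. They were 5 higher and 0 lower of 8 cytokine genes, 6 and 1 of 12 cytokine receptor genes, 6 and 0 of 13 surface protein genes and 7 and 3 of 22 transcription factor genes. The median log2 ratio over all genes was 0.09 in the control and 0.02 in the knockout. Among receptors, Il3ra, which encodes the IL-3 receptor alpha chain of the main growth factor of basophils, was 5.83-fold and 4.72-fold higher. Csf2rb, its signalling partner, was 10.2-fold and 4.31-fold higher, and Crlf2, the receptor chain for thymic stromal lymphopoietin, 4.46-fold and 3.01-fold. Among factors, Gfi1, a repressor of granulocyte precursors, gave 1 UMI in the cells of the rule in each library and was 0.103-fold and 0.0256-fold. Mpo, which encodes myeloperoxidase, was 0.105-fold (0.08427 to 0.1288) and 0.179-fold (0.1649 to 0.1945). Of 18 G2/M genes 10 were higher and 0 lower, and of 18 S phase genes 0 were higher and 2 lower.

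In marker-rich cells alone, Gata2, which the class does not use, was 488-fold (129.6 to 4118) and 624.7-fold (297.8 to 1573) higher than in Elane-high precursors, and Hdc 10.2-fold (7.565 to 13.58) and 7.01-fold (5.777 to 8.467). S100a8, a calcium-binding protein gene of neutrophils, was 0.0396-fold and 0.0246-fold, against 0.0401-fold and 0.297-fold over all cells of the rule. Of the 1946 S100a8 UMIs of all cells in the library labelled knockout, 1808 lay in 1 marker-poor cell.

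Between the sinusoidal libraries, all cells of the rule labelled knockout were at least 2-fold higher than labelled control for 234 of 3851 genes (6.08%) and at least 2-fold lower for 247 (6.41%). With the mean of each cell's CPM in place of summed UMIs, which gives shallow cells the same weight as deep ones, the counts were 552 and 357, and the median log2 ratio of all genes moved from -0.05 to 0.11. The higher genes were led by the neutrophil genes Camp, Ngp, S100a8 and S100a9, and of 8 later neutrophil genes measured 7 were higher (median log2 ratio 3.11). Camp stood at 2398 against 165 CPM, but 1185 of its 1241 UMIs were in 1 marker-poor cell, and without that cell the ratio was 0.677 (0.4066 to 1.164). Without their highest cell Ngp was at 0.554, S100a8 at 0.459 and S100a9 at 0.36. Ly6c2, a monocyte gene with its highest cells among the marker-poor, was 8.90-fold higher (5.779 to 14.47) and 7.59-fold without its highest cell. In marker-rich cells alone Ly6c2 stood at 116.9 against 111.0 CPM, on 27 and 9 UMIs, so its difference lay in the marker-poor cells. The lower genes included Osm (0.126-fold, 0.08824 to 0.179), Ifitm1 (0.147-fold, 0.1171 to 0.1827), Ccl6 (0.172-fold, 0.138 to 0.2146) and Junb (0.262-fold, 0.2053 to 0.3333). Low-cycle cells held 17978 of the 517505 UMIs labelled knockout and 26524 of the 133421 labelled control. In low-cycle cells without the Prg2-rich cell, Ccl6 stood at 7283 against 7729 CPM. Osm (461 against 3619), Ifitm1 (2950 against 6447) and Junb (2120 against 4562) were further apart there. The part of the class mix in these ratios was not tested.

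The direction of the cytokine genes differed between all cells and the cycling class. Of 11 cytokine and chemokine genes 0 were higher and 6 lower over all cells (median log2 ratio -1.16), whereas within cycling cells 4 of 10 were higher and 0 lower (median 0.46). Ccl3 was 0.409-fold (0.3628 to 0.4604) over all cells, 3.83-fold (2.767 to 5.44) within cycling cells and 0.475-fold (0.3882 to 0.5787) within low-cycle cells. Without its highest cell, the cycling value of Ccl3 was 2.92-fold. Ccl4 was 0.326-fold, 2.83-fold (1.965 to 4.194) and 0.562-fold (0.4578 to 0.6854), and 31 of its 32 control UMIs in cycling cells lay in 1 cell. A single cycling cell labelled knockout held 119 of 353 Ccl4 UMIs, and without it the ratio was 2.01-fold (1.386 to 3.009). Among cycling cells, Ccl4 was seen in 9 of 21 labelled knockout and 2 of 4 labelled control, and Ccl3 in 17 and 3. In summed UMIs both chemokines were thus lower over all cells and higher within cycling cells. There the intervals of Osm (1.84-fold, 0.7778 to 5.276) and Junb (1.87-fold, 1.063 to 3.533) lay across or near 1. Il6 was 0.678-fold over all cells and 3.15-fold (1.463 to 8.059) within cycling cells, on 86 and 7 UMIs.

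Within cycling cells, 21 labelled knockout and 4 labelled control, 103 of 1769 genes were at least 2-fold higher (5.82%) and 116 at least 2-fold lower (6.56%). Of the markers, Cd200r3 was 2.42-fold higher (1.598 to 3.812), Mcpt8 2.0-fold (1.895 to 2.113) and Prss34 1.75-fold (1.676 to 1.819), while Cpa3 (1.24-fold, 1.054 to 1.468) and Ms4a2 (0.855-fold, 0.6568 to 1.124) differed less. The Mcpt8 and Prss34 percent of single cycling cells overlapped, at 0.491 to 15.2 with a median of 11.3 in the control and 5.82 to 21.7 with a median of 12.4 in the knockout. The deepest of the 4 control cells held 21587 of their 54566 UMIs and only 106 UMIs of Mcpt8 and Prss34. Without it Mcpt8 was 1.29-fold (1.218 to 1.363), Prss34 1.06-fold (1.019 to 1.106), Cd200r3 1.59-fold (1.033 to 2.555), Ccl3 2.44-fold (1.749 to 3.499) and Ccl4 1.76-fold (1.219 to 2.634). The size of these ratios thus rested in large part on 1 control cell. H1f0, a linker histone gene, was 3.33-fold higher (1.552 to 8.515) and Anxa2, a membrane-binding protein gene, 3.26-fold (1.516 to 8.333). Of the lower genes, Ifitm1 had all 41 control UMIs in 1 cell. Csrp3 was 0.459-fold, and 1.11-fold without the control cell that held 36 of its 48 UMIs.

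Within low-cycle cells, 5 labelled knockout and 8 labelled control, 16 of 310 genes were at least 2-fold higher (5.16%) and 31 at least 2-fold lower (10.0%). The Prg2-rich cell is left out of the second value given for each gene. Osm was 0.0768-fold (0.0244 to 0.1856), and 0.127-fold (0.04044 to 0.3077) without that cell. Junb was 0.317-fold and 0.465-fold. Ccl3 was 0.475-fold and 0.788-fold (0.6434 to 0.9592), and Cd200r3 0.412-fold and 0.682-fold (0.3276 to 1.317). So Osm and Junb stayed past 2-fold without the Prg2-rich cell, and Ccl3 and Cd200r3 did not. Of 9 immediate-early genes 0 were higher and 5 lower (median log2 ratio -1.13), and 3 were lower without that cell.

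**Figure D5:**
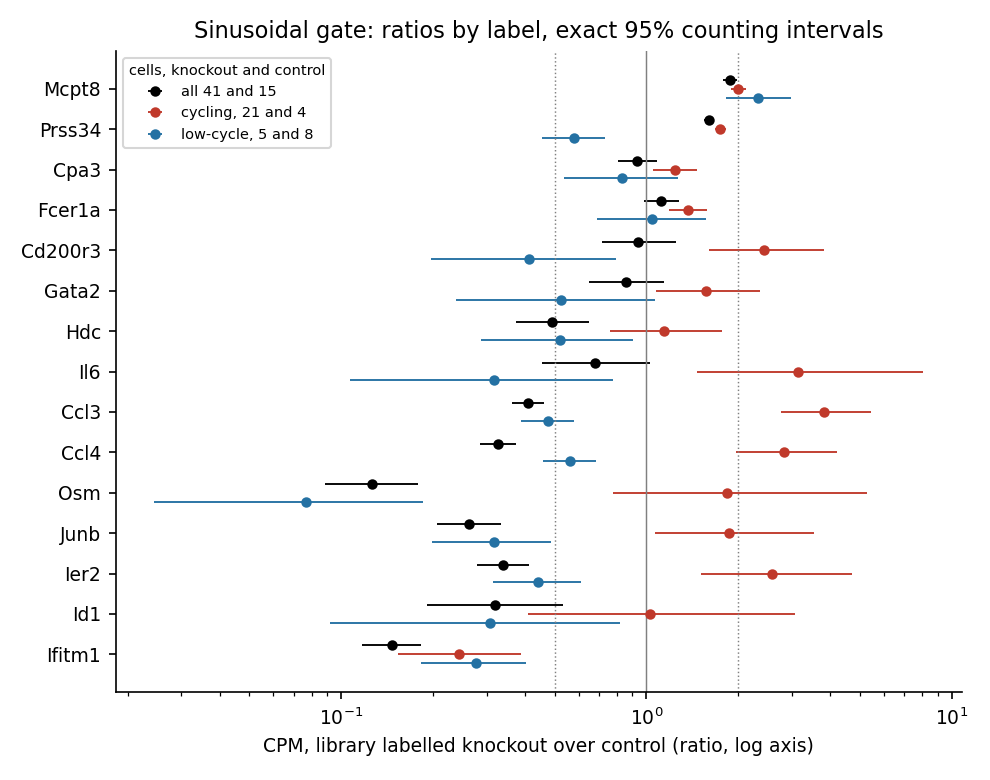
Points give the ratio of the sinusoidal library labelled knockout over labelled control (log axis) for named genes, in all cells of the rule, cycling cells and low-cycle cells, with exact 95% counting intervals. Ccl3 lies at 0.409 over all cells and at 3.83 within cycling cells, and Osm at 0.126 over all cells and 0.0768 within low-cycle cells.

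Of the genes named by the genotype, Id3 went against the labels in these cells. Id3 gave 63 UMIs in 30 of the 41 cells labelled knockout (121.7 CPM) and 0 UMIs in the 15 cells labelled control. In the latter 3 counts would be 22.5 CPM, and the level labelled knockout was 5.41-fold that floor. The exact interval of the ratio between the libraries begins at 4.275. Among cycling cells it gave 30 and 0 UMIs. Id1 stood at 71.5 against 225 CPM over all cells (0.318-fold, 0.1911 to 0.5329) and at 113 against 110 CPM in cycling cells (1.02-fold, 0.4079 to 3.064). Over all kept cells of the 2 libraries Id3 was 1.55-fold higher in the one labelled knockout (1.311 to 1.84). The assay reads transcript ends, and the sources used here do not state whether a disrupted allele still gives such reads, so these values cannot check the labels by themselves. Each direction by label above rests on those labels.

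The 5 type H cells, seen before the limits were set, fell into both marker-rich classes inside the Sca-1-positive gate. Of these, 2 were cycling, with 22.8% and 16.2% of UMIs from Mcpt8 and Prss34 at depths of 8738 and 10618 UMIs. The other 3 were low-cycle, with 0.535%, 0.397% and 0.13% at depths of 4483, 2522 and 5391 UMIs. Ctsg gave 30 and 39 UMIs in the cycling cells and 0, 1 and 0 in the low-cycle cells, and Ccl4 gave 2 and 1 against 108, 31 and 40. Ly6a, the gene of Sca-1, gave 6 UMIs in 2 of the 5 cells (189 CPM, 69.35 to 411.3), both low-cycle. In the 38 marker-rich cells of the sinusoidal gate Ly6a gave 0 of 312138 UMIs, which allows up to 9.61 CPM. All 806 kept cells of the type H control together held 848 CPM of Ly6a. Gzmb, which encodes the protease granzyme B of cytotoxic cells, gave 8 UMIs in 2 of the 5 type H cells and 4 UMIs in 2 of the 38 sinusoidal cells.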

How the data were processed

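The deposited matrices hold raw counts of UMIs per gene and barcode for 27998 genes, per the file headers and the values. Capture used the 10x Genomics Chromium, per the labels' protocols. Cell Ranger, Seurat and mm10 are named in the submitters' processing notes, without versions. Barcodes were kept with 200 genes or more and mitochondrial genes under 10% of UMIs, and 3567 of 3641 passed. No doublet caller was run, and leaving out cells that had Xist UMIs together with Y-linked ones is an alternative. UMIs were summed over the cells of a class and library and scaled by their total to counts per 1000000 UMIs (CPM). Kept cells held 3179782, 8290424, 5638299 and 11023619 UMIs in sinusoidal control, sinusoidal knockout, type H control and type H knockout. Sums have exact Poisson, shares Clopper-Pearson and ratios conditional exact 95% intervals, and a floor of 3 counts stands for 0. These do not cover the spread between cells, animals or libraries.

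Each group was 1 library, so no test was made. A gene was counted as higher or lower at 2-fold with at least 20 UMIs in both sums together, with 0.5 UMIs added for log2. The members and gene lists were chosen with earlier results of these data known, and the marker-rich, cycling and low-cycle classes and the 3-library naming rule after the values were seen. Genes named are members of the lists, or up to 12 per direction outside ribosomal, mitochondrial, Xist and Y-linked genes. By label these were seen in at least 20% of cells where higher and ranked by the interval bound nearest to 1. Against Elane-high cells they had at least 100 CPM where higher and were ranked by their smallest log2 ratio. Of the listed symbols 330 matched and 5 had no match. The ratio script was tested on simulated data. Alternatives were other scalings, UMI minimums, thresholds of the rule, thinning and the classes. Python 3.11.15, numpy 2.4.6, scipy 1.17.1, pandas 2.3.3 and matplotlib 3.10.9 were used.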

Additional observations from a re-analysis of the deposited data

How the results depend on the processing

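No paired analysis was possible because each group was 1 library, and for the same reason no replicate could be left out. The share of cells by the rule in the sinusoidal library labelled knockout (7.41%) was 4.88% at 10 or more Mcpt8 and Prss34 UMIs, 15.2% at 3 or more, 5.06% with these genes at 0.1% of UMIs or more and 4.52% after thinning to 2000 UMIs, and the other 24 values of shares moved by less than their intervals. The counts of genes at least 2-fold higher and lower by label (234 and 247) were 64 and 76 at 50 or more UMIs, 1074 and 2402 at 1 or more, 111 and 132 for cells with 10 or more Mcpt8 and Prss34 UMIs, 112 and 148 in marker-rich cells, 103 and 116 in cycling cells, 16 and 31 in low-cycle cells, and 17 and 29 there without the Prg2-rich cell. These settings test fewer or more genes or cells. At 1.5-fold the counts were 532 and 716, and with the mean of cell CPM 552 were higher. The cause of the latter was not tested.

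No scaling reversed a list median or any of the 24 named genes looked at. The choice of cells did, and the cause was not tested beyond the single cells named above. The later neutrophil median (log2 3.11) was -0.83 at 10 or more Mcpt8 and Prss34 UMIs, -0.52 with Elane under 0.1%, -0.64 in marker-rich, -0.80 in cycling and -0.82 in low-cycle cells, and -1.19 there without the Prg2-rich cell. In the same order Camp was -0.92, -0.52, -0.82 and -0.94 and Ngp -0.83, -0.78, -0.64 and -0.79, neither with enough UMIs in low-cycle cells. S100a8 was -0.93, -1.21, -0.93, -0.81, -0.82 and -1.19, and S100a9 -1.55, -1.47, -1.65, -1.41, -1.55 and -1.19. In cycling cells the cytokine median was 0.46, Hdc 0.17, Ccl3 1.92, Ccl4 1.48, Ccl6 3.16, Osm 0.78 and Junb 0.86, all reversed in sign against all cells of the rule. Ccl6 rested on 52 UMIs labelled knockout, 36 of them in 1 cell, against 1 labelled control. Without that cell the interval of its ratio was 0.6508 to 175.7, and the interval of Osm given above lay across 1. Other list medians that moved were cytokines (-0.55 at 10 or more Mcpt8 and Prss34 UMIs, -0.23 in low-cycle cells without the Prg2-rich cell), histamine and eicosanoid genes (0.64 in cycling cells), early granulocyte genes (0.50 without cells holding Xist and Y-linked UMIs, -0.26 in cycling cells), monocyte genes (-0.40 in marker-rich, -1.94 and -1.21 in low-cycle cells with and without the Prg2-rich cell), interferon genes (-0.91 in marker-rich, -1.23 in cycling, -1.84 and -1.11 in low-cycle cells), immediate-early genes (0.36 in cycling cells) and G2/M genes (-0.69 in low-cycle cells, from 1 gene). The other 159 list medians moved by less. Depth limits the low-cycle class most, since its 5 cells labelled knockout hold 17978 UMIs.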
